A study of Mus musculus with 18 samples.

Results

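The comparison described here set mouse lung epithelial cells 24 h after CHIR withdrawal against the CHIR control cells of the same study. The libraries were chosen by their titles, 3 of 24 h withdrawal and 3 of CHIR, which are 6 of the 18 RNA sequencing libraries of the series. The cells came from lung and were labelled alveolar type 2, the surfactant-producing cells of the alveolar epithelium. They had been cultured for 19 days with CHIR99201, the labels' spelling of a compound listed there as an agonist of Wnt signalling, here written CHIR. LGK974, an inhibitor of the acyltransferase porcupine that blocks secretion of Wnt ligands, was listed for both groups, so the 24 h withdrawal cells had LGK974 without CHIR and the CHIR cells had LGK974 with CHIR. Treatment times of 8 to 12 h were given for all groups. Strain, age and sex of the mice, and whether the libraries within a group are of separate animals or cultures, were not stated, so p-values measure only how much these libraries vary, which may be technical variation.

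Canonical Wnt signalling stabilises beta-catenin, which enters the nucleus and activates genes through the TCF and LEF transcription factors. Several of those genes, such as Axin2, Nkd1, Rnf43 and Znrf3, encode inhibitors that dampen the pathway. In the adult lung, alveolar type 2 cells act as stem cells of the alveolus, some of them in a Wnt-responsive state, and they can differentiate into the thin alveolar type 1 cells that carry out gas exchange. Differentiation into type 1 cells is known to involve the co-activators YAP and TAZ, which act through TEAD factors.

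The libraries were not alike within the groups. Total gene counts ran from 31509607 to 36495215 in 24 h withdrawal and from 34458610 to 43631637 in CHIR, so that 3 counts equal 0.0822 to 0.0952 CPM (read counts scaled to library size, with TMM factors) in 24 h withdrawal and 0.0688 to 0.0871 CPM in CHIR. In 24 h withdrawal 2, 31.3% of the authors' library total lay outside gene counts, against 12.0% to 15.5% in the other 5 libraries, 4.13% of gene counts were mitochondrially encoded and 10.8% fell on 3 nuclear RNAs. Xist, the RNA that silences an X chromosome in female cells, had 4 counts in 24 h withdrawal 2 and 1 count in CHIR 3, against 251 and 326 counts in 24 h withdrawal 1 and 3, and 812 and 530 counts in CHIR 1 and 2. Over genes, 24 h withdrawal 1 and 3 had a chi-square of their counts, divided by its degrees of freedom, of 25.4. That of 24 h withdrawal 2 was 1148 with 24 h withdrawal 1 and 1206 with 24 h withdrawal 3. For the 3 pairs of CHIR libraries it was 380.3 to 501. Beside the fit of all 18 libraries, 3 smaller fits chosen with the data known are therefore used. The 16-library fit set 24 h withdrawal 1 and 3 against all 3 CHIR libraries (24 h withdrawal 2 left out, and FZD6 agonist 1, a library of another group that bears only on the estimate of the spread). The 15-library fit set them against CHIR 1 and 2 (CHIR 3 also left out, hence all libraries with low Xist), and the 14-library fit against CHIR 2 alone (CHIR 1 also left out), with the spread of that lone library assumed to be like that of the other groups. The fits share libraries, so a call made by several of them is not independent support.

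Over all 18 libraries, edgeR's quasi-likelihood test with Benjamini-Hochberg adjustment called 0 of 16497 genes (0%) at an adjusted p of 0.05. At an unadjusted p under 0.05 there were 1951 genes higher (11.8%) and 858 lower (5.2%). limma voom with quality weights also called 0 genes, while DESeq2 called 500 genes (3.03%), 375 higher (2.27%) and 125 lower (0.758%). In 632 genes (3.83%) all 3 libraries of 24 h withdrawal lay above all 3 of CHIR, and in 900 genes (5.46%) all 3 lay below, together 1532 genes (9.29%) without overlap. Without 24 h withdrawal 2 alone, 0 genes were called (2245 at an unadjusted p under 0.05). The 16-library fit, which also leaves out FZD6 agonist 1, called 26 genes higher (0.154%) and 14 lower (0.0832%). The 15-library fit called 972 genes (5.8%), 479 higher (2.86%) and 493 lower (2.94%). The 14-library fit called 784 (4.5%), 480 higher (2.75%) and 304 lower (1.74%). Called by both were 460 genes, all in the same direction, which is 47.3% of the calls of the 15-library fit and 58.7% of those of the 14-library fit. All 40 calls of the 16-library fit were among those of the 15-library fit. None of them was called against CHIR 2 alone with FZD6 agonist 1 kept. All 3 counts thus depended on leaving out FZD6 agonist 1, which is in neither group and bears on the estimate of the spread. With it kept, the comparison with CHIR 1 and 2 called 146 genes (0.869%), 101 higher (0.601%) and 45 lower (0.268%), a setting added later, and that with CHIR 2 called 43 higher (0.244%) and 4 lower (0.0227%).

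Of the genes named here, those called in the 16-library fit were Pdpn, Akap5, Ccn1, Rrs1, Gnl3, Rars, Arhgap22, Sh3d21, Shh, Steap1, Gnpda1 and Gramd2, and with FZD6 agonist 1 kept none of them was called there. Those called against CHIR 1 and 2 with that library kept were Tcf7 of the Wnt targets, Cavin2, Krt7 and Napsa of the alveolar markers, Ncl, Dkc1, Wdr12, Rrp15, Chaf1b, Steap1, Umps, Gemin6, Arhgap22, Hecw1, Snai3, Clic3, Klk14, Rasl12, Tspan11 and Heg1. Against CHIR 2 they were Cavin2, Tspan11 and Heg1. Any other call of the smaller fits given here was lost with FZD6 agonist 1 kept. Several of these genes, such as Steap1 and Hecw1, were named for their differences between these same libraries. Their calls are therefore no separate support.

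The Wnt readouts did not move together. Axin2, a feedback inhibitor commonly used to read out pathway activity (located on chromosome 11, 108920349 to 108950783, plus strand, GRCm38 as for all positions here), had 2.20, 0 and 1.83 CPM in 24 h withdrawal 1 to 3, against 2.38, 9.43 and 1.55 CPM in CHIR 1 to 3. Only CHIR 2 stood above the other libraries, and the groups overlapped. The log2 fold change was -1.72 (SE 0.97, edgeR adjusted p = 0.377) over 18 libraries and -1.54 (SE 0.57, edgeR adjusted p = 0.116) in the 15-library fit. Against CHIR 2 alone Axin2 fell (log2 fold change -2.21, SE 0.44, edgeR adjusted p = 0.0115). That call was lost with FZD6 agonist 1 kept in the fit (edgeR adjusted p = 0.161), and without CHIR 2 the log2 fold change was -0.54.

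Lgr5, a receptor for R-spondins and a Wnt target (chromosome 10, 115450311 to 115587780, minus strand), had 1.17, 0 and 0.995 CPM in 24 h withdrawal, against 7.74, 10.1 and 1.06 CPM in CHIR. Tcf7, which encodes the transcription factor TCF1 (chromosome 11, 52252371 to 52283014, minus strand), had 1.0, 0 and 1.88 CPM in 24 h withdrawal, against 4.49, 8.49 and 1.25 CPM in CHIR. In both genes CHIR 1 and 2 were high and CHIR 3 was within the range of 24 h withdrawal. Both fell in the 15-library fit, Lgr5 (log2 fold change -3.03, SE 0.65, edgeR adjusted p = 0.0252) and Tcf7 (log2 fold change -2.16, SE 0.44, edgeR adjusted p = 0.0219), and both fell in the 14-library fit. Neither passed over all 18 libraries (edgeR adjusted p = 0.225 for Lgr5 and 0.230 for Tcf7) or in the 16-library fit (0.204 for each).

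Nkd1, an inhibitor that binds Dishevelled and, like Axin2, a target of the pathway (chromosome 8, 88521354 to 88594884, plus strand), was on the other side. It had 27.9, 26.6 and 14 CPM in 24 h withdrawal, against 4.81, 6.57 and 8.81 CPM in CHIR. All 3 libraries of 24 h withdrawal lay above all 3 of CHIR, with a log2 fold change of 1.76 (SE 0.40, edgeR adjusted p = 0.197). Nkd1 rose in the 15-library fit (log2 fold change 1.89, SE 0.40, edgeR adjusted p = 0.0252) and did not pass in the 16-library fit (log2 fold change 1.64, edgeR adjusted p = 0.0758) or the 14-library fit (log2 fold change 1.69, edgeR adjusted p = 0.175).

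Sp5, a transcription factor induced by Wnt signalling, had 75.7, 16.2 and 75.9 CPM in 24 h withdrawal, against 34.0, 124 and 32.4 CPM in CHIR. Rnf43, a ubiquitin ligase that removes Frizzled receptors, had 49.2, 8.60 and 54.2 CPM in 24 h withdrawal, against 13.3, 69.1 and 25.5 CPM in CHIR. In both, CHIR 2 was the highest and 24 h withdrawal 2 the lowest library. The sign of Sp5 depended on CHIR 2, with a log2 fold change of 0.75 (edgeR adjusted p = 0.456) without that library and -0.70 (edgeR adjusted p = 0.0052) against it alone. Likewise that of Rnf43 was 0.95 (edgeR adjusted p = 0.368) without CHIR 2 and -0.40 (edgeR adjusted p = 0.0810) against it alone. Znrf3, the partner of Rnf43, had 13.1, 6.16 and 14.4 CPM in 24 h withdrawal, against 25.1, 21.8 and 15.2 CPM in CHIR, and was not called in any of the 4 fits (edgeR adjusted p of 0.105 to 0.316). Notum, a secreted deacylase that inactivates Wnt ligands, stayed at or below 0.576 CPM in 24 h withdrawal and at or below 0.658 CPM in CHIR.

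Of 21 canonical Wnt targets and feedback genes tested, 0 were called over 18 libraries and the median log2 fold change was -0.02, beside 0.02 over all genes. The 15-library fit called 2 of 23 higher (8.7%) and 2 lower (8.7%), against 2.86% and 2.94% of all genes. The 14-library fit called 0 of 27 higher and 4 lower (14.8%), Axin2, Lgr5, Tcf7 and Sp5, against 1.74% lower among all genes. Among 24 Wnt receptors and transducers, Tcf7l1, a TCF factor that mainly represses, had 87.3, 53.2 and 80.7 CPM in 24 h withdrawal, against 25.2, 53.3 and 73.3 CPM in CHIR. It was the only member called higher in the 15-library fit (log2 fold change 1.11, SE 0.26, edgeR adjusted p = 0.0316). That is 4.17% of the members, against 2.86% of all genes. With FZD6 agonist 1 kept against CHIR 1 and 2, 0 members were called. Fzd8, a Frizzled receptor, was called beside Tcf7l1 in the 14-library fit.

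**Figure D1:**
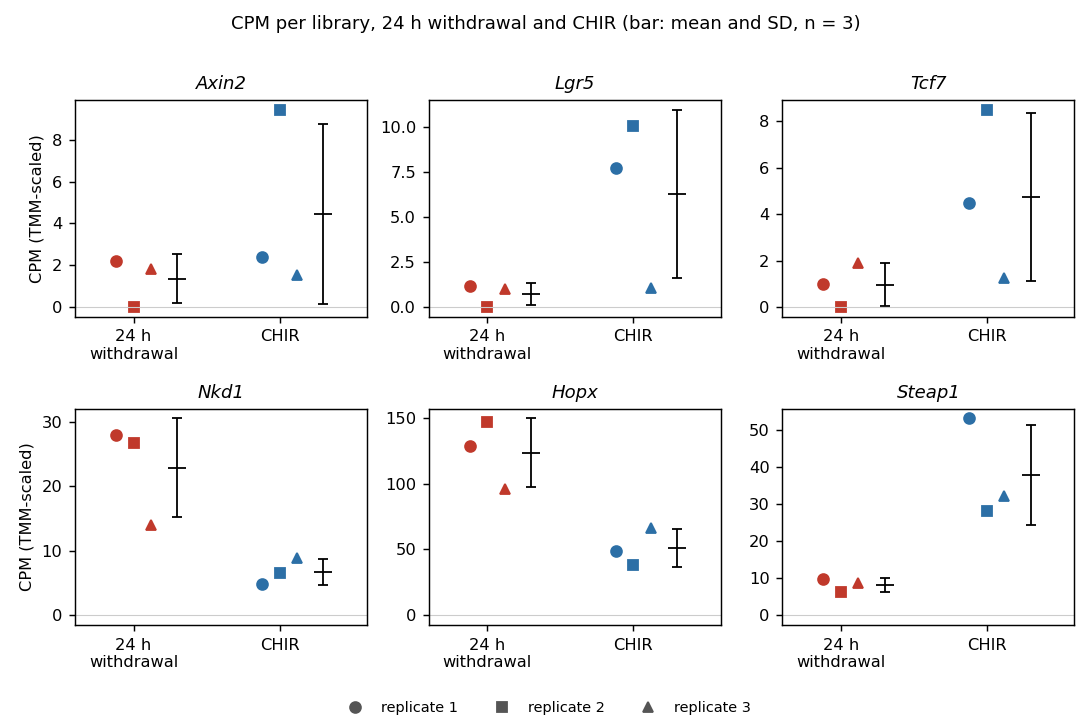
CPM of 6 genes in each library of 24 h withdrawal (left, red) and CHIR (right, blue), on linear axes, with the mean and SD of the 3 libraries as bars and the replicate shown by the shape of the point. Nkd1, Hopx and Steap1 do not overlap between the groups, while the CHIR means of Axin2, Lgr5 and Tcf7 rest on CHIR 2, or on CHIR 1 and 2, with CHIR 3 at 1.06 to 1.55 CPM.

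Markers of alveolar type 1 cells were higher in 24 h withdrawal 1 and 3 than in CHIR, and 2 of 24 passed the test in the 16-library fit (8.33%, background 0.154%). Hopx, an atypical homeodomain protein of type 1 cells (chromosome 5, 77086988 to 77115121, minus strand), had 129, 147 and 95.5 CPM in 24 h withdrawal, against 48.4, 37.8 and 66.6 CPM in CHIR. Ager, a standard type 1 marker that encodes a receptor for glycated proteins (chromosome 17, 34597862 to 34600936, plus strand), had 1189, 3840.1 and 1166 CPM in 24 h withdrawal, against 572, 428 and 1013 CPM in CHIR. In both genes the groups did not overlap, and 24 h withdrawal 2 had the highest Ager level. Over 18 libraries neither passed (log2 fold change 1.28, SE 0.35, and 1.62, SE 0.45; edgeR adjusted p = 0.197 for each). Both rose in the 15-library fit, Hopx (log2 fold change 1.39, SE 0.23, edgeR adjusted p = 0.00934) and Ager (log2 fold change 1.24, SE 0.27, edgeR adjusted p = 0.0256), and in the 14-library fit. Neither passed in the 16-library fit, where Hopx had a log2 fold change of 1.14 (edgeR adjusted p = 0.0704) and Ager, without the high 24 h withdrawal 2, one of 0.81 (edgeR adjusted p = 0.238). DESeq2 called both over 18 libraries (DESeq2 adjusted p = 0.0310 for Hopx and 0.0275 for Ager).

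Of the 24 alveolar type 1 markers, 22 had a positive fold change over 18 libraries and 4 had no overlap between the groups, all higher (16.7%, against 3.83% of all genes). The median log2 fold change was 0.68 over 18 libraries, 0.84 in the 16-library fit, 1.14 in the 15-library fit and 1.01 in the 14-library fit, beside -0.02 to 0.02 over all genes. The 15-library fit called 11 of 24 higher (45.8%, background 2.86%) and the 14-library fit 9 (37.5%, background 2.75%), with none lower. With FZD6 agonist 1 kept, 2 markers were called against CHIR 1 and 2 (8.33%, background 0.601%) and 1 against CHIR 2 (4.17%, background 0.244%).

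Akap5 and Pdpn were the markers called in the 16-library fit, and neither passed without 24 h withdrawal 2 alone (edgeR adjusted p = 0.290 for Akap5 and 0.287 for Pdpn). Akap5, a scaffold for protein kinase A, had 434, 100.2 and 433 CPM in 24 h withdrawal, against 136, 216 and 111 CPM in CHIR, and rose in the 16-library fit (log2 fold change 1.49, SE 0.27, edgeR adjusted p = 0.0407). Pdpn, podoplanin, had 6.90, 0.0705 and 7.20 CPM in 24 h withdrawal, against 0.711, 2.73 and 1.08 CPM in CHIR, and rose there (log2 fold change 2.21, SE 0.40, edgeR adjusted p = 0.0434). In both, 24 h withdrawal 1 and 3 lay above all CHIR libraries and 24 h withdrawal 2 below all of them. Cavin2, a component of caveolae, had 115, 188 and 111 CPM in 24 h withdrawal, against 26.4, 23.2 and 244 CPM in CHIR, so that its call (log2 fold change 2.20, SE 0.18, edgeR adjusted p = 0.000157 in the 15-library fit) was lost with CHIR 3 included (log2 fold change 0.21, edgeR adjusted p = 0.907 in the 16-library fit). Krt7, a simple-epithelial keratin on the same list, had 1255, 1495 and 997 CPM in 24 h withdrawal, against 563, 673 and 1249 CPM in CHIR, and rose in the 15-library fit (log2 fold change 0.88, SE 0.15, edgeR adjusted p = 0.0092) but did not pass in the 16-library fit (log2 fold change 0.44, edgeR adjusted p = 0.406).

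All 23 type 2 markers were detected in each of the 6 libraries and single members differed in either direction. Sftpc, surfactant protein C, had 41612, 144814 and 38858 CPM in 24 h withdrawal, against 93166, 36668 and 97701 CPM in CHIR, and the libraries of 1 group differed by more than the group means did (log2 fold change -0.01, SE 0.48, edgeR adjusted p = 0.992). High libraries were 24 h withdrawal 2, CHIR 1 and CHIR 3. Of 23 type 2 markers, 12 had a positive fold change over 18 libraries. The 15-library fit called 4 higher (17.4%) and 1 lower (4.35%), and the 14-library fit 4 higher (17.4%) and 0 lower, against backgrounds of 2.86% higher and 2.94% lower, and 2.75% higher and 1.74% lower.

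Napsa, the protease napsin A of type 2 cells, was called higher in both (log2 fold change 1.32, SE 0.22, edgeR adjusted p = 0.00953 in the 15-library fit) and had 1170.4, 948 and 791 CPM in 24 h withdrawal, against 438, 352 and 948 CPM in CHIR. S100g, a calcium-binding protein, had 27.1, 86.6 and 22.1 CPM in 24 h withdrawal, against 13.4, 9.74 and 17.95 CPM in CHIR, with no overlap. Sftpb, surfactant protein B, had 4419, 5841 and 4244 CPM in 24 h withdrawal, against 1029, 2764 and 6909 CPM in CHIR. S100g and Sftpb were also called higher in the 15-library and 14-library fits. In the 16-library fit none of the 3 passed (edgeR adjusted p = 0.281 for Napsa, 0.149 for S100g and 0.810 for Sftpb). Lyz1, a lysozyme whose reads may be shared with the near-identical Lyz2, had 934, 1148 and 546 CPM in 24 h withdrawal, against 1917, 1289 and 2197 CPM in CHIR. All 3 libraries of 24 h withdrawal lay below all 3 of CHIR, and no fit called it (edgeR adjusted p of 0.0761 to 0.405). Chil1, a chitinase-like protein, had 6931, 3919 and 6614 CPM in 24 h withdrawal, against 7098, 4768 and 6194 CPM in CHIR, and its 14-library call (log2 fold change 0.52, SE 0.09, edgeR adjusted p = 0.00588) was not shared by the 15-library fit (log2 fold change 0.20, edgeR adjusted p = 0.417). Because these are bulk samples, more cells of a type and more RNA per cell cannot be told apart.

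Targets of YAP and TEAD were higher in 24 h withdrawal 1 and 3. Promoters are shown for Ccn1, Lats2 and Wwtr1, which were called higher in the 15-library fit and carry the core letters that TEAD factors bind. These letters, CATTCC, were searched on both strands (GGAATG on the other strand). The other members called in that fit, Dlc1, Ccn2 and Amotl1, held no match or had no listed promoter. Ankrd1, Amotl2, Ajuba, Axl, Yap1 and Crim1 held a match and were not called there. The sequences are RefSeq promoters on GRCm38.p6, from 250 bases before to 50 bases after the start of transcription, 5′ to 3′ on the strand of the gene, with the match in capitals. They lie at chr3:145649936-145650235 (Ccn1), chr14:57746074-57746373 (Lats2) and chr3:57575861-57576160 (Wwtr1), each on the minus strand.
Ccn1: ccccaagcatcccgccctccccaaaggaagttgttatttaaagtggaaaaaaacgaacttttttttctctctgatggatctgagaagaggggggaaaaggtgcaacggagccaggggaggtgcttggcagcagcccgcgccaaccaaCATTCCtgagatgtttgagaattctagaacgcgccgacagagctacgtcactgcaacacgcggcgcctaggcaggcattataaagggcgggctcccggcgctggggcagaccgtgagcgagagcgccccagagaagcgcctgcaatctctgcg
Lats2: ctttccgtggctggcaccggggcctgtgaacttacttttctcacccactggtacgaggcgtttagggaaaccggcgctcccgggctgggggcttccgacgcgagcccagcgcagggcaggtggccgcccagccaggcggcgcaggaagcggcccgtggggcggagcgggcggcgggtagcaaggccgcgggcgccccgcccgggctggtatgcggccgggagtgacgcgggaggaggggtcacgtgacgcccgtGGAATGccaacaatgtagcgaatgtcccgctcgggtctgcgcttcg
Wwtr1: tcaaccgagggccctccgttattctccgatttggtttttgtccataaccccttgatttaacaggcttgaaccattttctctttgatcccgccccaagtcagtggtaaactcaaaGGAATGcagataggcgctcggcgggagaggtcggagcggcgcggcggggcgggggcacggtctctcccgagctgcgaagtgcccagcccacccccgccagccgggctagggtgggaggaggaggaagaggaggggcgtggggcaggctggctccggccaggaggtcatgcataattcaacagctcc
The match begins at position -103 from the start in Ccn1, at 4 in Lats2 and at -136 in Wwtr1. A second promoter of Lats2 in the table (chr14:57734369-57734668, minus strand) held 0 matches, and a second one of Wwtr1 overlaps that shown and holds the same match. Of the 13 list members with a promoter in the table, 9 (69.2%) held CATTCC in at least 1 promoter, against 16.6% of 27025 genes, and 14.7% of 32851 promoters. A match of these letters is a description of the sequence and was not tested as a binding site.

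Ccn1, a secreted matricellular protein also called Cyr61 (chromosome 3, 145646976 to 145649981, minus strand), had 430.2, 45.2 and 291 CPM in 24 h withdrawal, against 92.8, 109 and 98.3 CPM in CHIR. The CHIR libraries were close to each other, 24 h withdrawal 1 and 3 lay above them and 24 h withdrawal 2 below. The difference did not pass over 18 libraries (log2 fold change 1.36, SE 0.57, edgeR adjusted p = 0.251). Without 24 h withdrawal 2 alone it did not pass either (log2 fold change 1.85, edgeR adjusted p = 0.283). Ccn1 had the smallest adjusted p of the 16-library fit, with a log2 fold change of 1.85 (SE 0.19, edgeR adjusted p = 0.00319), and it also rose in the 15-library and 14-library fits. With FZD6 agonist 1 kept against CHIR 1 and 2, the SE was 0.46 and the edgeR adjusted p was 0.0734.

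Ccn2, the related factor CTGF, had 32.5, 9.37 and 26.9 CPM in 24 h withdrawal, against 5.88, 16.1 and 8.88 CPM in CHIR. Lats2, a kinase that inhibits YAP and is itself a target, had 14.9, 14.1 and 15.6 CPM in 24 h withdrawal, against 5.72, 11.1 and 12.1 CPM in CHIR, with no overlap. Amotl1, an angiomotin that binds YAP, had 18.9, 43.1 and 19.8 CPM in 24 h withdrawal, against 11.7, 11.4 and 14.2 CPM in CHIR, also with no overlap. These 3 genes rose in the 15-library fit and did not pass in the 14-library fit. The log2 fold changes of the 15-library fit were 1.44 for Ccn2 (SE 0.36, edgeR adjusted p = 0.0412), 0.86 for Lats2 (SE 0.22, edgeR adjusted p = 0.0419) and 0.76 for Amotl1 (SE 0.19, edgeR adjusted p = 0.0415). Wwtr1, which encodes TAZ, had 224, 75.4 and 191 CPM in 24 h withdrawal, against 71.8, 144 and 159 CPM in CHIR, and rose in the 15-library fit (log2 fold change 0.95, SE 0.24, edgeR adjusted p = 0.0399) and in the 14-library fit (log2 fold change 0.54, SE 0.14, edgeR adjusted p = 0.0448).

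Over the list, 17 of 19 tested members had a positive fold change over 18 libraries, with a median of 0.62, and the 15-library fit called 6 higher (31.6%, background 2.86%) and 0 lower. The 14-library fit called 2 higher (10.5%, background 2.75%), and 0 were called by either with FZD6 agonist 1 kept. The list stood lower in 24 h withdrawal 2 than in 24 h withdrawal 1 and 3: its median per library, relative to the mean of CHIR on a log2(CPM + 0.5) scale, was 1.09, -0.71 and 0.82 in 24 h withdrawal, against -0.53, 0.33 and -0.02 in CHIR.

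**Figure D2:**
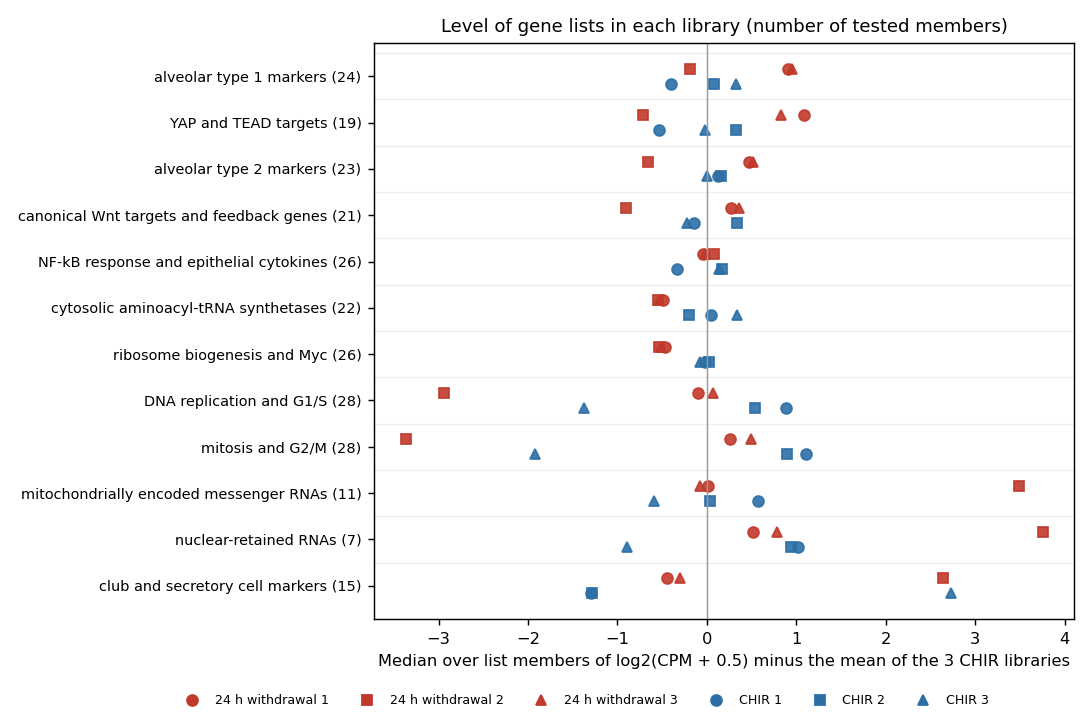
Median over the tested members of 12 gene lists of log2(CPM + 0.5) in each library, as a difference from the mean of the 3 CHIR libraries; red points are 24 h withdrawal and blue points CHIR, with the replicate shown by the shape. The medians of ribosome biogenesis and aminoacyl-tRNA synthetases are lower in all 3 libraries of 24 h withdrawal than in any of CHIR, while in the cell cycle, mitochondrial, nuclear RNA and club cell lists 24 h withdrawal 2 or CHIR 3 stands apart.

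The median level of genes of ribosome biogenesis was lower in each of the 3 libraries of 24 h withdrawal than in any of CHIR, while single members such as Gnl3 differed from it. The list holds nucleolar proteins and ribosome assembly factors, many of them known targets of Myc. Its median per library, relative to the mean of CHIR, was -0.46, -0.54 and -0.51 in 24 h withdrawal, against -0.02, 0.02 and -0.08 in CHIR. In 12 of 26 members (46.2%) all 3 libraries of 24 h withdrawal lay below all 3 of CHIR, and in 0 above, against 5.46% and 3.83% of all genes. The median log2 fold change was -0.54 over 18 libraries and between -0.51 and -0.47 in the 3 smaller fits. None passed over 18 libraries. The 15-library fit called 12 of 26 lower (46.2%, background 2.94%) and the 14-library fit 14 (53.8%, background 1.74%), with 0 higher in either. With FZD6 agonist 1 kept, 5 were called lower against CHIR 1 and 2 (19.2%, background 0.268%) and 0 against CHIR 2.

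Ncl, nucleolin (chromosome 1, 86344719 to 86359400, minus strand), had 349, 299 and 349 CPM in 24 h withdrawal, against 550.3, 492 and 382 CPM in CHIR. Wdr43, a factor of small-subunit processing (chromosome 17, 71615895 to 71659031, plus strand), had 75.8, 65.6 and 81.5 CPM in 24 h withdrawal, against 163, 105 and 119 CPM in CHIR. Neither overlapped between the groups, and CHIR 1 was the highest library in both. Ncl fell in the 15-library fit (log2 fold change -0.57, SE 0.11, edgeR adjusted p = 0.0162) and in the 14-library fit (log2 fold change -0.48, SE 0.09, edgeR adjusted p = 0.00709). Wdr43 fell in the 15-library fit (log2 fold change -0.76, SE 0.17, edgeR adjusted p = 0.0288). Gnl3, nucleostemin, and Rrs1, an assembly factor of the large subunit, were the members called in the 16-library fit. Gnl3 had 39.3, 101 and 33.1 CPM in 24 h withdrawal, against 68.6, 69.7 and 72.5 CPM in CHIR, so 24 h withdrawal 2 was the highest of the 6, and its log2 fold change in the 16-library fit was -0.95 (SE 0.15, edgeR adjusted p = 0.0214). Without 24 h withdrawal 2 alone that of Gnl3 was also -0.95 and did not pass (edgeR adjusted p = 0.283). Rrs1 had 35.2, 55.5 and 34.4 CPM in 24 h withdrawal, against 56.6, 58.0 and 69.9 CPM in CHIR, and its log2 fold change there was -0.82 (SE 0.15, edgeR adjusted p = 0.0434).

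Myc and related factors bind the E-box letters CACGTG, which read the same on both strands. They stood in the promoters of 5 of 20 list members with a promoter in the table (25.0%), against 8.09% of 27025 genes. The 5 were Nop2, Pes1, Utp20, Wdr43 and Mettl1. Apart from Wdr43, the members called lower in the 15-library fit, such as Ncl, Dkc1 and Wdr12, held no E-box or had no listed promoter. Of the 5, only Wdr43 was called lower in that fit. Its promoter lies at chr17:71615965-71616264 on the plus strand (RefSeq, GRCm38.p6), with the E-box in capitals at position 17 from the start.
Wdr43: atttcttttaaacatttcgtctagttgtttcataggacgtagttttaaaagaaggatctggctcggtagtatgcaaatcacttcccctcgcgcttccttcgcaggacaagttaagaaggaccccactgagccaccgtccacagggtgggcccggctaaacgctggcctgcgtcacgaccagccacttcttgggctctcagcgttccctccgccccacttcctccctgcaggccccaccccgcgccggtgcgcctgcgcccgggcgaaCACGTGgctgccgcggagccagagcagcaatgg
The core letters of TCF and LEF binding, CTTTGA or, as another form, CTTTGT, searched on both strands, were in the promoters of 6 of 18 Wnt targets (33.3%), against 34.5% of 27025 genes.

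Aminoacyl-tRNA synthetases, which charge tRNAs with amino acids, had negative fold changes in 20 of 22 members over 18 libraries. The list median per library was -0.49, -0.55 and -0.53 in 24 h withdrawal, against 0.04, -0.20 and 0.34 in CHIR, and in 7 of 22 (31.8%, background 5.46%) all 3 libraries of 24 h withdrawal lay below those of CHIR. Rars, the arginyl-tRNA synthetase, had 83.0, 123 and 78.0 CPM in 24 h withdrawal, against 189, 121 and 214 CPM in CHIR, and fell in the 16-library fit (log2 fold change -1.12, SE 0.19, edgeR adjusted p = 0.0393). Tars, the threonyl-tRNA synthetase, had 152, 129 and 151 CPM in 24 h withdrawal, against 285, 189 and 245 CPM in CHIR, with no overlap, and fell in the 15-library fit (log2 fold change -0.64, SE 0.17, edgeR adjusted p = 0.0496). In all, the 15-library fit called 4 of 22 lower (18.2%, background 2.94%) and the 14-library fit 1 (4.55%, background 1.74%), and 0 were called by either with FZD6 agonist 1 kept.

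Genes of the ATF4 response and of serine and one-carbon synthesis had their highest list median in CHIR 3. The median per library was -0.38, -0.15 and -0.78 in 24 h withdrawal, against -0.61, -0.29 and 0.87 in CHIR. The list medians of the groups thus overlapped. Asns, asparagine synthetase (chromosome 6, 7675169 to 7693254, minus strand), had 222, 201 and 206 CPM in 24 h withdrawal, against 359.9, 306 and 689 CPM in CHIR. Phgdh, the first enzyme of serine synthesis, had 13.8, 13.1 and 13.1 CPM in 24 h withdrawal, against 16.9, 23.6 and 34.6 CPM in CHIR. The next enzymes of that path, Psat1 and Psph, had 159.9, 63.4 and 149.9 CPM and 32.7, 48.9 and 31.8 CPM in 24 h withdrawal, against 274, 229.6 and 277 CPM and 65.3, 50.3 and 126 CPM in CHIR. In all 4 genes 24 h withdrawal lay below CHIR without overlap, as it did for 5 of the 28 list members (17.9%, background 5.46%). Asns did not pass in any of the fits (edgeR adjusted p of 0.0777 to 0.261), and Phgdh passed only against CHIR 2 alone (log2 fold change -0.80, SE 0.20, edgeR adjusted p = 0.0335). In the 15-library fit Psph fell (log2 fold change -0.83, SE 0.18, edgeR adjusted p = 0.0252), as did Psat1 (log2 fold change -0.69, SE 0.17, edgeR adjusted p = 0.0398). Over the whole list the median was -0.83 in the 16-library fit and -0.11 in the 15-library fit, which differ in CHIR 3.

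Cell cycle genes were lower in 24 h withdrawal 1 and 3 than in CHIR 1 and 2, and lowest of all in 24 h withdrawal 2 and CHIR 3. Mki67, a marker of proliferating cells (chromosome 7, 135689784 to 135716361, minus strand), had 104, 25.1 and 146 CPM in 24 h withdrawal, against 207, 189 and 15.3 CPM in CHIR. Chaf1b, a histone chaperone of replicating DNA, had 22.8, 14.5 and 25.7 CPM in 24 h withdrawal, against 65.7, 42.4 and 18.6 CPM in CHIR. Birc5, survivin, had 70.2, 9.34 and 77.0 CPM in 24 h withdrawal, against 170.0, 109 and 14.5 CPM in CHIR. All 28 genes of DNA replication and the G1/S transition and all 28 of mitosis had negative fold changes over 18 libraries, with medians of -0.80 and -0.62. In 0 genes of either list were the groups without overlap.

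Without the 3 libraries of low Xist, 16 of 28 replication genes fell (57.1%) and 11 of 28 mitotic genes (39.3%), against 2.94% of all genes. The 14-library fit called 9 (32.1%) and 4 (14.3%) lower, against 1.74%. With FZD6 agonist 1 kept against CHIR 1 and 2, 1 replication gene (3.57%) and 0 mitotic genes were called lower, against 0.268%. Chaf1b fell (log2 fold change -1.15, SE 0.20, edgeR adjusted p = 0.0118) and Birc5 (log2 fold change -0.91, SE 0.20, edgeR adjusted p = 0.0252) in the 15-library fit, while Mki67 did not pass there (log2 fold change -0.66, SE 0.19, edgeR adjusted p = 0.0601). With CHIR 3 included, in the 16-library fit, the medians were -0.33 and -0.15 and 0 genes of either list were called, against 0.0832% of all genes.

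Chemokines and other NF-kB targets had a median of 0.14 over 18 libraries and -0.34 in the 15-library fit. That fit called 9 of 26 lower (34.6%, background 2.94%) and 1 higher, and the 14-library fit 8 of 27 lower (29.6%, background 1.74%) and 1 higher. Cxcl5, a chemokine that draws neutrophils (chromosome 5, 90759360 to 90761624, plus strand), had 118, 90.8 and 129 CPM in 24 h withdrawal, against 206, 206 and 129 CPM in CHIR, and fell in the 15-library fit (log2 fold change -0.73, SE 0.12, edgeR adjusted p = 0.00898). Ccl2, a monocyte chemokine, was near the detection limit, with 5, 0 and 3 counts in 24 h withdrawal, against 65, 24 and 14 counts in CHIR, and fell in the 15-library fit (edgeR adjusted p = 0.0295). The member called higher was Icam1, an adhesion molecule that is also on the basal cell list, with 1528, 716 and 1363 CPM in 24 h withdrawal, against 544, 815 and 1175 CPM in CHIR, and a log2 fold change of 1.10 (SE 0.17, edgeR adjusted p = 0.00737).

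**Figure D3:**
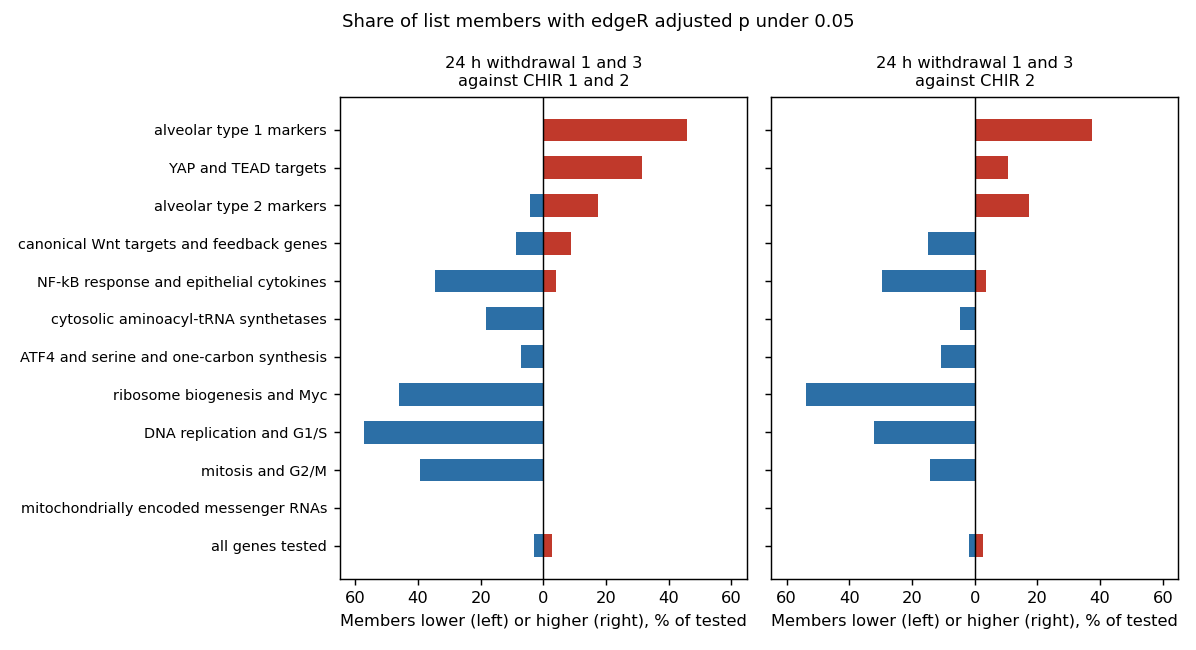
Share of the tested members of 11 gene lists, and of all genes tested, that passed edgeR's adjusted p of 0.05 as higher (right, red) or lower (left, blue) after 24 h of withdrawal, in the 15-library fit (left panel) and the 14-library fit (right panel). Type 1 markers reach 45.8% higher and replication genes 57.1% lower in the left panel, against 2.86% and 2.94% of all genes.

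Among genes of any function, 58 higher and 52 lower met a rule that asked for no overlap between the groups, an unadjusted p under 0.05 over 18 libraries, a call in the 14-library fit and an average log2 CPM of at least 2. The 12 with the largest fold change each way are described here, and since these measures chose them, their differences are given without support from the same fits. Steap1, a membrane protein of the STEAP metalloreductase family (chromosome 5, 5736317 to 5749326, minus strand), had 9.71, 6.16 and 8.79 CPM in 24 h withdrawal, against 53.1, 28.2 and 32.0 CPM in CHIR. Over 18 libraries its log2 fold change was -2.20 (SE 0.32), one of the measures that chose it. Its adjusted p there was the smallest of all genes and did not pass (edgeR adjusted p = 0.0826). Its lowest CHIR library, at 28.2 CPM, lay above the highest of 24 h withdrawal, at 9.71 CPM, as the rule required of every gene lower here. Also lower were Shmt1, a cytosolic enzyme of one-carbon metabolism, Slc19a1, the reduced folate carrier, Umps, of pyrimidine synthesis, and Gnpda1, a deaminase of glucosamine phosphate. The others were Utp4, Wdr12, Dkc1 and Rrp15, which act in ribosome assembly, Gemin6, Trmt61a and Extl2. The 24 h withdrawal 2 library stood apart from the other 2 in some of them, as in Utp4, which had 59.5, 2.99 and 63.5 CPM in 24 h withdrawal, against 154, 87.6 and 98.8 CPM in CHIR.

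Among those higher, Shh, the ligand Sonic hedgehog (chromosome 5, 28456815 to 28467256, minus strand), had 15.5, 19.4 and 15.7 CPM in 24 h withdrawal, against 3.99, 7.85 and 3.36 CPM in CHIR. Arhgap22, a GTPase-activating protein of Rac, had 3.98, 2.57 and 2.62 CPM in 24 h withdrawal, against 0.246, 0.727 and 0.916 CPM in CHIR. Sh3d21 had 8.99, 17.4 and 8.82 CPM in 24 h withdrawal, against 2.71, 3.44 and 2.33 CPM in CHIR. All 3 were also called in the 16-library fit, but that fit shares its libraries with those of the rule. These calls are therefore no further support. The other 9 were Hecw1, Snai3, Kat6b, Clic3, Kank3, Klk14, Rasl12 and the markers S100g and Ager. In Snai3, Kat6b and Kank3 the mean of 24 h withdrawal was carried by 24 h withdrawal 2, with 50.2, 25.4 and 100.4 CPM there.

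Outside the rule and named after their values were seen, Gramd2 had 258, 265 and 289 CPM in 24 h withdrawal, against 66.6, 103 and 103 CPM in CHIR, with a log2 fold change of 1.59 (SE 0.21, edgeR adjusted p = 0.0144) in the 16-library fit. Tspan11, a tetraspanin, had 118, 150.2 and 121 CPM in 24 h withdrawal, against 26.5, 35.6 and 116 CPM in CHIR. Heg1, a membrane protein of cell junctions, had 25.4, 37.6 and 29.9 CPM in 24 h withdrawal, against 5.53, 8.97 and 22.0 CPM in CHIR. In the last 2 genes CHIR 3 was close to 24 h withdrawal and the calls of the 15-library fit (edgeR adjusted p = 0.000157 for Tspan11 and 0.000652 for Heg1) were not made in the 16-library fit.

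**Figure D4:**
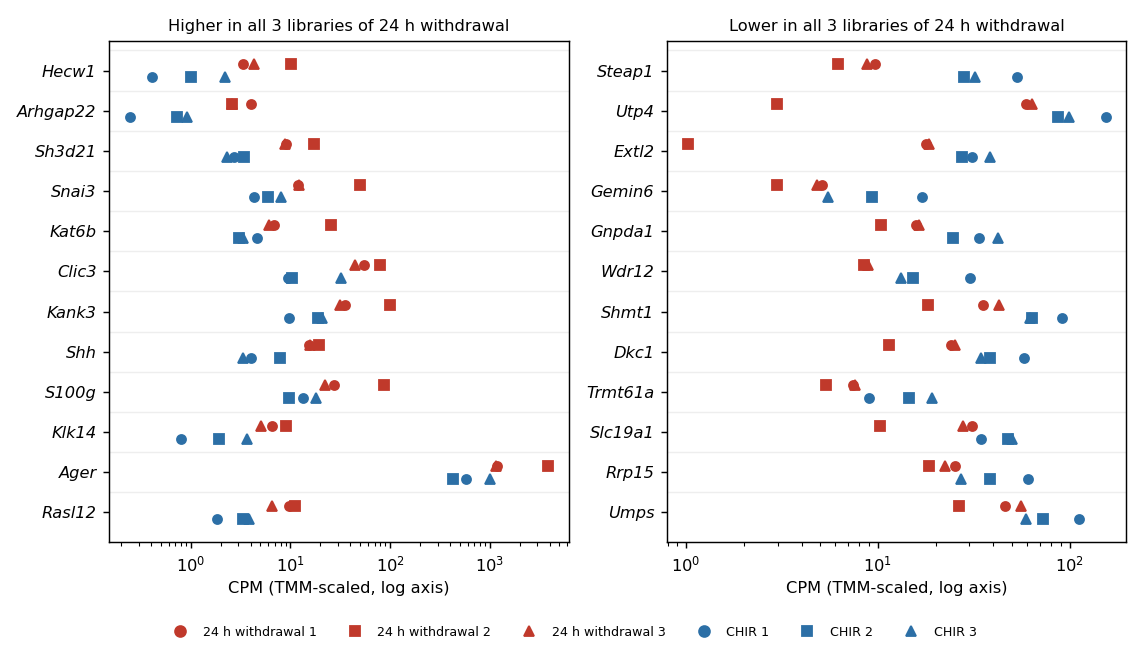
CPM on log axes in each library for the 12 genes with the largest positive (left panel) and the 12 with the largest negative (right panel) log2 fold change that met the rule for named genes; red points are 24 h withdrawal and blue points CHIR, with the replicate shown by the shape. The groups do not overlap in any row by construction, and 24 h withdrawal 2 lies far from the other red points in Kat6b, Snai3, Utp4 and Extl2.

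The 48 h withdrawal libraries gave the next time point. In the order CHIR, 24 h and 48 h, mean CPM (SD, n = 3 each) was 51.0 ± 14.5, 124 ± 26.0 and 239.6 ± 23.8 for Hopx, and 6.73 ± 2.00, 22.8 ± 7.68 and 51.9 ± 19.2 for Nkd1. It was 37.8 ± 13.4, 8.22 ± 1.84 and 2.47 ± 0.242 for Steap1, and 474 ± 85.6, 332 ± 28.8 and 235 ± 10.4 for Ncl. In these 4 genes, picked among those named, the 24 h mean lay between the other 2. In Snai3, Kat6b and Kank3, where 24 h withdrawal 2 carried the 24 h mean, that mean lay above both others. The comparisons of either time with CHIR share the CHIR libraries and are not independent. Chil1 and Cxcl5 differed between the times: Chil1 had 6019.8 ± 1175, 5821 ± 1655 and 17741 ± 391 CPM and Cxcl5 180.3 ± 44.7, 113 ± 19.8 and 304 ± 19.8 CPM, and 48 h was higher than 24 h over 18 libraries (edgeR adjusted p = 0.0482 and 0.0280).

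Markers of other cell types were summed per library. Club and secretory markers reached 286, 2461 and 299.5 CPM in 24 h withdrawal, against 184, 155 and 1806 CPM in CHIR, and Scgb1a1, the club cell secretoglobin, had 0.612, 38.6 and 0.105 CPM in 24 h withdrawal, against 0.246, 0.0882 and 50.7 CPM in CHIR. The high libraries were 24 h withdrawal 2 and CHIR 3, which were also those with few cell cycle transcripts and low Xist, and what part this had in the results over 18 libraries was not tested. Endothelial markers summed to 0.0835 to 0.247 CPM in 24 h withdrawal, against 0.132 to 0.399 CPM in CHIR, with Cdh5, Kdr, Tie1, Tek and Emcn at 0 in all 6 libraries. Mesenchymal markers summed to 1.41 to 38.9 CPM in 24 h withdrawal, against 2.95 to 14.2 CPM in CHIR, with Col1a2, Col3a1, Mgp and Postn at 0. Haematopoietic markers, which include the type 2 gene Lyz2, summed to 428 to 977 CPM in 24 h withdrawal, against 429 to 1634 CPM in CHIR, with Adgre1, Marco and Itgam at 0. Ciliated markers summed to 44.5 to 67.4 CPM in 24 h withdrawal, against 47.4 to 76.7 CPM in CHIR, neuroendocrine markers to 1.503 to 4.19 against 1.34 to 2.05 CPM, and gastric and gut markers to 2.83 to 61.9 against 3.48 to 7.35 CPM. Basal markers summed to 742 to 1529 CPM in 24 h withdrawal, against 545 to 1217 CPM in CHIR, nearly all of it Icam1, with Krt14 at 0. In the 15-library fit 3 of 11 club and secretory markers were called higher (27.3%, background 2.86%), and of the other cell type lists in this paragraph only Icam1 of the basal list was called.

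Mitochondrially encoded and nuclear RNAs stood high in 24 h withdrawal 2. The 11 mitochondrially encoded genes had a median log2 fold change of 2.13 over 18 libraries and -0.11 in the 16-library fit. The nuclear-retained RNAs Malat1 and Neat1 had 1167, 40418 and 1409.6 CPM and 2183, 46818 and 2625 CPM in 24 h withdrawal, against 3457, 1037 and 886 CPM and 884, 1663 and 1836 CPM in CHIR, and the median of the 7 such genes was 1.89 over 18 libraries and -0.13 in the 16-library fit. Neat1 was higher in all 3 libraries of 24 h withdrawal than in any of CHIR and rose in the 15-library fit, which lacks 24 h withdrawal 2 (log2 fold change 0.93, SE 0.24, edgeR adjusted p = 0.0412). It did not pass in the 16-library fit (log2 fold change 0.72, edgeR adjusted p = 0.179).

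The remaining lists had 0 members called over 18 libraries and few in the smaller fits. In the 15-library fit, 4 of 21 TGF beta targets (19.0%) and 2 of 18 transitional-state genes (11.1%) were called higher and 0 lower, against 2.86% and 2.94% of all genes. BMP targets had 1 of 14 higher, p53 targets 1 of 21 higher and 2 lower, cholesterol synthesis 1 of 24 each way, fatty acid and surfactant phospholipid synthesis 1 of 22 each way, and the interferon response 0 of 18 higher and 2 lower. Among the p53 targets called lower was Gdf15, a stress-induced cytokine, with 17.4, 154 and 14.5 CPM in 24 h withdrawal, against 70.4, 46.6 and 231 CPM in CHIR, and a log2 fold change of -1.87 (SE 0.27, edgeR adjusted p = 0.00479). No member was called in that fit in the lists of endoplasmic reticulum chaperones, antigen presentation, Notch, FGF and ERK feedback, and hypoxia and glycolysis, whose medians were -0.09, -0.15, 0.71, 0.63 and 0.41.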

How the data were processed

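Gene expression was measured by RNA sequencing of 0.1 µg of total RNA per library with a stranded total RNA kit, per the labels' protocols, and aligned with GSNAP to GRCm38, per the submitters' processing notes. No source used here names the annotation, the counter or its strand setting, so reads of overlapping genes and antisense partners could not be separated. The authors deposited whole-number read counts per gene, not normalised, which were used for all tests. The RPKM values that the authors deposited beside them were used only to recover the library total, which exceeds the summed gene counts. Of 52636 gene identifiers, 99.6% had a symbol in GENCODE M21.

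Genes were filtered by filterByExpr within groups (36139 removed), scaled by TMM and tested in 1 model of the 18 libraries with group as its only term, using glmQLFit (robust) and glmQLFTest of edgeR 4.0.16 in R 4.3.3. Adjusted p under 0.05 counted as called. SE is the log2 fold change over the square root of F, CPM are on TMM-scaled library sizes, and intervals or levels at 3 counts cover counting error only. The alternatives were DESeq2 1.42.0, limma 3.58.1 (voom with quality weights), other scalings and filters, only the 6 libraries, the replicate number as a block, and leaving libraries out. The procedure was tested on simulated data.

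The comparison, the smaller fits, the 33 gene lists and the genes always named were chosen with earlier results of these data known. Lists got no test of their own and are described by counts and medians beside all genes. Genes named were a set list (Axin2, Nkd1, Lgr5, Tcf7, Sp5, Notum, Rnf43, Hopx, Ager, Sftpc, Napsa, Lyz1, Chil1, Asns, Phgdh, Cxcl5, Mki67, Scgb1a1, Xist), the 12 each way described with their rule in the text, and among up to 4 members per list with the smallest unadjusted p over 18 libraries. Named outside this rule, after their values were seen, were Akap5, Ccn1, Ccn2, Cavin2, Fzd8, Gdf15, Gnl3, Gramd2, Heg1, Krt7, Lats2, Ncl, Pdpn, Psph, Rars, Rrs1, Sftpb, Tcf7l1, Tspan11 and Wwtr1.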

Additional observations from a re-analysis of the deposited data

How the results depend on the processing

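The count of called genes was 0 over 18 libraries and with RLE or upper-quartile scaling, with low counts unfiltered or filtered at 1 CPM, with mitochondrial and ribosomal RNA genes left out, and limma voom. It was also 0 with only the 6 libraries compared (245 genes at an unadjusted p under 0.05). It was 500 with DESeq2, 40 in the 16-library fit, 972 in the 15-library fit, 784 in the 14-library fit and 47 with FZD6 agonist 1 added to the 14 libraries. Added to the 15 libraries, an alternative chosen after seeing the data, it gave 146. Leaving out 1 library at a time gave 0 to 8, with 8 without CHIR 3. With the replicate number as a block (replicate block) it was 0. Same-numbered libraries did not deviate together from their group means (correlations of -0.10, -0.28 and -0.11). Because 24 h withdrawal 2 is unlike 24 h withdrawal 1 and 3 and shifts their group mean, this cannot settle whether the numbers pair the samples. Axin2 passed only in the 14-library fit (log2 fold change -2.21) and had -2.26 to -0.54 when 1 library was left out. Hopx passed in the 15-library fit (1.39), the 14-library fit (1.58) and with DESeq2 (1.29), and had 1.10 to 1.51 when 1 library was left out.

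Of 1455 values for 73 named genes under these alternatives, 1228 kept direction and stayed uncalled, 176 kept direction and newly passed, and 51 changed sign. No gene was called over 18 libraries, so none had a call to lose. The cause was not tested. Signs changed as follows, in log2 fold change. With limma voom, Notum had 0.64, Chil1 0.36, Birc5 0.0085, Mki67 0.15 and Xist 1.17. In the 16-library fit Sp5 had 0.26, Notum 0.54, Chil1 0.17 and Malat1 -0.47. In the 15-library fit Notum had 1.20, Chil1 0.20, Scgb1a1 1.12 and Malat1 -0.80, and with FZD6 agonist 1 added 1.20, 0.20, 1.13 and -0.80. In the 14-library fit Notum had 0.85, Rnf43 -0.40, Sftpc 0.15, Chil1 0.52 and Scgb1a1 1.99, and with FZD6 agonist 1 added 0.85, -0.41, 0.15, 0.52 and 1.98. Sftpc had 0.016 with the filter of 1 CPM and 0.0042 over 6 libraries, and Scgb1a1 0.12 with the replicate block. When 1 library was left out, values that changed sign ran from -0.50 to 0.75 for Sp5, -0.47 to 0.64 for Notum, -0.34 to 0.95 for Rnf43, -0.91 to 0.30 for Sftpc, -0.20 to 0.17 for Chil1, -5.57 to 6.28 for Scgb1a1, -0.0049 to 1.35 for Sftpb, -2.86 to 0.072 for Gdf15, -0.47 to 3.89 for Malat1 and -0.25 to 1.17 for Fzd8. List medians kept their sign in 33 of 33 lists under RLE factors and in 32 under upper-quartile factors, and in 23 to 31 when libraries were left out. Low counts limit Notum and Ccl2. In 24 h withdrawal 2, Axin2, Lgr5 and Tcf7 had 0 counts, against 79, 42 and 36 in 24 h withdrawal 1. The total gene counts of these libraries were 31509607 and 34811948, and why the 3 genes were at 0 was not tested.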
